A study of Papio anubis with 767 samples.

Results

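Lung surfactant is a film of lipid and protein that lowers the surface tension of the air spaces and takes part in their defence. It is made by alveolar type 2 cells, which assemble and store it in lysosome-like organelles, the lamellar bodies, and secrete it into the alveoli, where flat alveolar type 1 cells form most of the gas exchange surface. Club cells line the small airways and secrete proteins of their own. The 8 genes described here mark these cells: the surfactant proteins SFTPC, SFTPB and SFTPD, the lamellar body and processing genes ABCA3, NAPSA and LAMP3, the type 1 cell receptor AGER, and the club cell secretory protein SCGB1A1. They were taken by symbol from the deposited expression table, and each symbol has 1 row, so they are 8 of 29202 rows, of which 20432 carry a symbol of their own.

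The table holds polyA RNA sequencing of 64 tissues of male olive baboons (labelled Papio anubis hamadryas), aged 5 to 6 years and weighing 7 to 11 kg. Light and dark phases lasted 12 h each, and the animals had meals at 9 and 15 hours of the clock. All 12 animals were untreated, and each was killed at a different time, every 2 h from ZT0 (lights on) to ZT22, then perfused with cold buffer before its tissues were taken. Lungs have 12 libraries, 1 for each animal, and the 63 other tissues have 755 libraries in all. The animal and the time of day therefore cannot be told apart in lungs. The labels name the organ only as lungs and do not say which region was sampled.

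Values are FPKM, fragments scaled for gene length and by a factor for each library, so that levels are given per length. They can be set beside each other between genes. The library factor was a median-of-ratios factor and not the total of reads, as described under the processing. The lungs libraries held 2.84 to 18.6 M reads assigned to genes (median 5.35 M, M for 1000000 reads). For each of the 12 lungs libraries, the pattern over 200 genes that differ between animals was set beside the other tissues of each animal. Each library matched its labelled animal best, with r between 0.60 and 0.92. The other tissues counted only through libraries that had matched their own label in an earlier round. Most lungs libraries also took part in the choice of the genes. Both make a match with the label easier.

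The library of ZT0 stood apart from the other lungs libraries. Its correlation with the lungs mean over genes was 0.76, against 0.87 to 0.99 in the other 11, and the library of ZT4 had the 0.87. The ZT0 library held nerve tissue genes: the median of 6 neuron markers was 75.7 FPKM at ZT0 and 0.01 to 0.36 FPKM in the other libraries. The same median was 54.4 FPKM for astrocyte markers and 77.9 FPKM for oligodendrocyte markers at ZT0, and it did not pass 0.58 FPKM elsewhere. Results on time are therefore given with and without ZT0.

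Lungs were the tissue with the highest mean of 7 of the 8 genes, and ABCA3 was the exception. The hydrophobic surfactant protein gene SFTPC had the highest level, with 1153, 3817 and 38097 FPKM as the lowest, median and highest of 12 lungs libraries. It ranked 4 of all 29202 rows by mean level in lungs, SFTPB ranked 13, AGER 17, SFTPD 35, NAPSA 73, LAMP3 144, SCGB1A1 864 and ABCA3 4132. Together the 8 genes took between 0.61% of the assigned reads (ZT0) and 11.7% (ZT6), and SFTPC alone took 9.18% at ZT6.

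**Figure D1:**
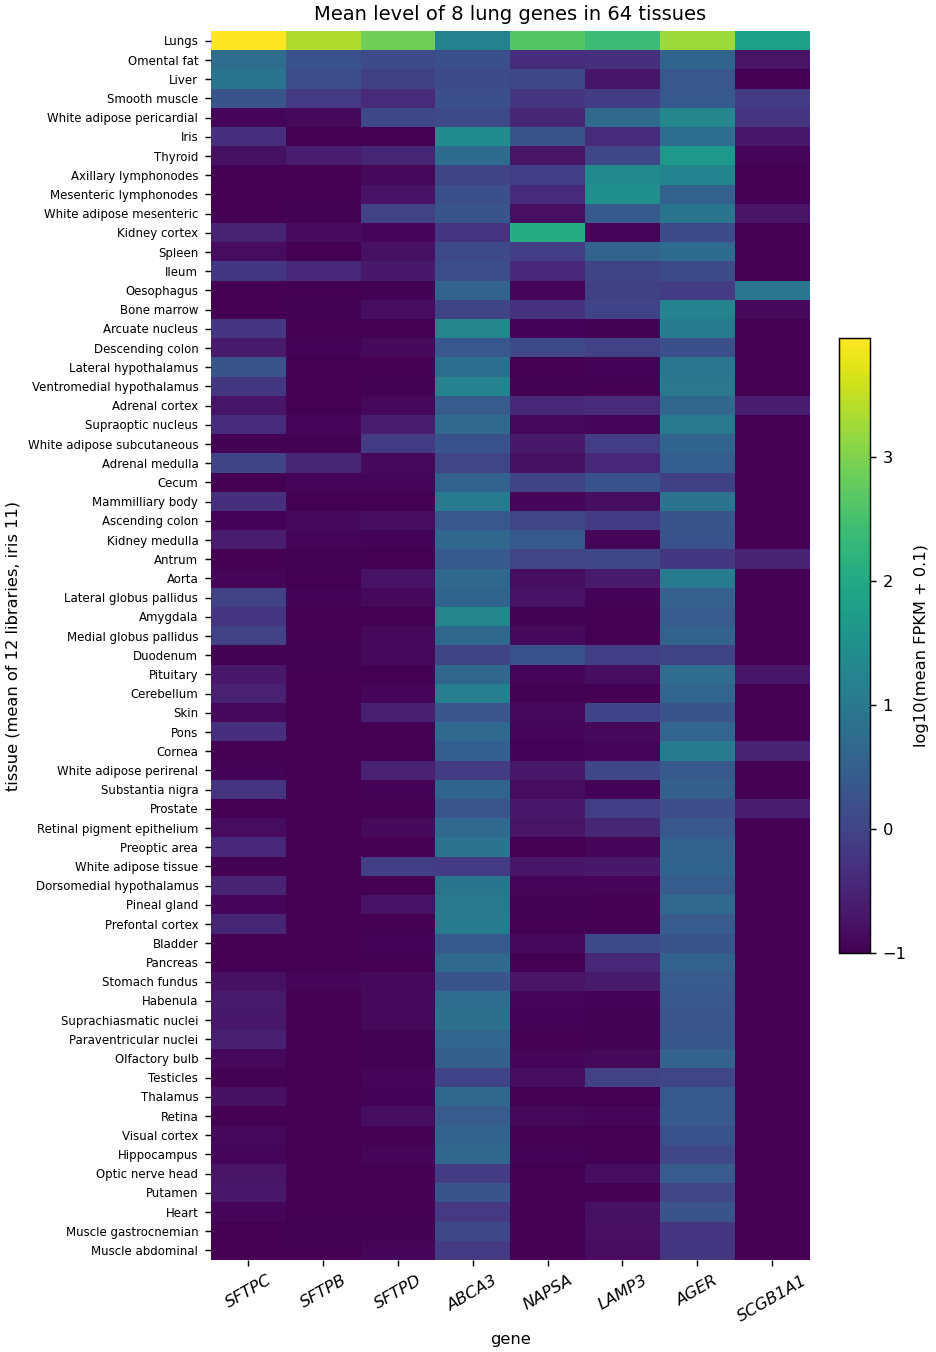
Mean level of the 8 genes (columns) in the 64 tissues (rows, lungs at the top, the others by the mean of their 8 log levels), as log10(mean FPKM + 0.1). SFTPC, SFTPB and SFTPD are bright in lungs and dark in nearly all other tissues, while ABCA3 and AGER have low levels in most tissues, NAPSA has a second bright cell in the kidney cortex and LAMP3 has such cells in both lymph nodes.

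Each gene was next compared between lungs and the tissue with the highest mean among the other 63, paired by labelled animal with limma on log2(FPKM + 0.5). Of the 8 genes, 7 were higher in lungs at an adjusted p under 0.05, against 68 of 12926 genes tested, which is 0.526% of them. The 8 were picked as lung genes, so their share is no independent evidence of the contrast. Of those 68 genes 24 were also at least 5 times the other tissue by mean, 6 of them among the 8.

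SFTPC encodes the small membrane-spanning proprotein from which the hydrophobic surfactant protein C is cut, and it is used as the defining marker of type 2 cells. It averaged 9053 ± 11552 FPKM in lungs and 7.92 ± 17.9 FPKM in liver, the next tissue (SD, n = 12 each). The difference was 11.47 ± 0.52 (SE) on the log2 scale, the first of all 12926 genes, with an adjusted p of 1.64e-10 and lungs higher in 12 of 12 pairs. No library outside lungs reached the lowest lungs library, and 442 of those 755 libraries had no read of it.

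The liver mean of SFTPC rested on 2 libraries, ZT4 with 57.0 FPKM from 282 reads and ZT2 with 31.7 FPKM from 225 reads. The median liver library had 0.37 FPKM. Omental fat, the third tissue, had 44.7 FPKM at ZT6 and 21.8 FPKM at ZT4, and its median was 0.08 FPKM. Low SFTPC levels in all 12 libraries of the lateral hypothalamus (0.33 to 5.41 FPKM) had another pattern, as its libraries with the highest levels, ZT16 and ZT6, had no read of SFTPB or SFTPD.

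SFTPB encodes the other hydrophobic surfactant protein, which is needed to form lamellar bodies and the surface film. Its lungs libraries ran from 584 to 6215 FPKM with a median of 1539 FPKM. It averaged 2313 ± 1902 FPKM in lungs and 1.65 ± 3.45 FPKM in omental fat, a ratio of 1403, and the log2 difference was 10.82 ± 0.26 (adjusted p = 8.95e-13, 12 of 12 pairs). It had 0 reads in 695 of the 755 other libraries, the most of the 3 surfactant proteins, and 3 FPKM or more in 5 of them, where SFTPD had 4 such libraries and SFTPC 12.

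SFTPD encodes a soluble collectin that binds microbes in the air spaces. It had 218, 640 and 2085 FPKM as the lowest, median and highest of the lungs libraries. Its mean was 779 ± 555 FPKM in lungs and 1.25 ± 2.12 FPKM in omental fat, with a log2 difference of 9.10 ± 0.23 (adjusted p = 1.21e-12, 12 of 12 pairs). The tissues below omental fat were pericardial fat at 1.09 ± 0.81 FPKM and mesenteric fat at 0.86 ± 0.42 FPKM, where SFTPB averaged 0.029 and 0.0062 FPKM.

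The libraries with the most SFTPC outside lungs usually held SFTPB as well. Of the 12 that reached 3 FPKM of SFTPC, 10 had reads of SFTPB. The SFTPC to SFTPB ratio ran from 1.79 to 6.13 in the 12 lungs libraries and from 2.10 to 7.96 in these 10. At ZT6 it was 6.13 in lungs and 6.17 in omental fat. The SFTPC level was 0.117% of that of lungs at the same labelled time in that library and 0.237% in liver at ZT4. AGER was in the same libraries, with 9.08 FPKM in omental fat at ZT6 and 12.4 FPKM in liver at ZT4, and SCGB1A1 had no read in either. Neither is particular to them: of the 755 libraries outside lungs, 4 had no read of AGER and 714 had none of SCGB1A1. Where these reads came from was not tested.

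ABCA3 encodes the transporter that carries phospholipid into lamellar bodies. It was the member with the lowest mean in lungs, 14.7 ± 14.2 FPKM (SD, n = 12), and libraries ran from 2.71 to 51.2 FPKM with a median of 9.98 FPKM. Lungs ranked 5 of 64 tissues, after the iris (25.1 ± 47.2 FPKM, n = 11), the amygdala (18.1 ± 6.48 FPKM), the arcuate nucleus (17.5 ± 5.42 FPKM) and the ventromedial hypothalamus (16.2 ± 3.00 FPKM). The iris mean rested on ZT8 with 143 FPKM from 833 reads and ZT6 with 91.3 FPKM from 723 reads. The iris library of ZT12 had 8.42 FPKM from 668 reads and that of ZT14 8.98 FPKM from 598 reads. The reads of these libraries differed far less than their levels, and the cause was not tested. The median iris library had 4.84 FPKM.

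Because of the iris libraries of ZT8 and ZT6, the means and the paired test ran in opposite directions for ABCA3. The ratio of means was 0.587, while the log2 difference between lungs and iris was 0.62 ± 0.50, with an adjusted p of 0.283 and lungs higher in 8 of 11 pairs. Neither the iris nor the amygdala, arcuate nucleus, ventromedial hypothalamus, cerebellum, prefrontal cortex, mammillary body or pineal gland differed from lungs past the threshold. Against the other 55 tissues lungs were higher. The amygdala library of ZT8 had 0 reads of ABCA3, when lungs had 13.2 FPKM, and the other amygdala libraries had 16.5 to 27.8 FPKM. The amygdala mean and test include that library. Only 5 of the 11 iris libraries matched their labelled animal, so that most of these pairs may not be within 1 animal. The call against the iris appeared, with 1.02 on the log2 scale and an adjusted p of 0.0313, when ZT8 was left out.

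NAPSA encodes napsin A, an aspartic protease that helps cut the SFTPB and SFTPC proproteins and is also known in the kidney. It averaged 445 ± 309 FPKM in lungs and 116 ± 167 FPKM in kidney cortex (SD, n = 12 each). The log2 difference was 2.34 ± 0.33 (adjusted p = 1.28e-05), and lungs were higher in 12 of 12 pairs. The groups overlapped through 1 kidney cortex library, that of ZT2, when lungs had 758 FPKM and kidney cortex 633 FPKM. The kidney medulla averaged 2.26 ± 2.58 FPKM, and no other tissue outside lungs averaged 5 FPKM or more.

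LAMP3 encodes a lysosomal membrane protein of lamellar bodies that is also a marker of mature dendritic cells, which gather in lymph nodes. It was the steadiest member in lungs: its libraries ran from 127 to 405 FPKM with a median of 236 FPKM. Its mean was 245 ± 84.8 FPKM in lungs and 30.3 ± 5.75 FPKM in mesenteric lymph nodes, and the log2 difference was 2.94 ± 0.15 (adjusted p = 1.33e-10, 12 of 12 pairs). Axillary lymph nodes averaged 23.5 ± 10.04 FPKM and the spleen 3.65 ± 1.52 FPKM. The spleen was not next in order after the lymph nodes, as 3 of the 63 other tissues averaged 5 FPKM or more. No library outside lungs reached the lowest lungs library.

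AGER encodes a receptor for advanced glycation end products that sits on the basal side of type 1 cells. It averaged 1668 ± 1201 FPKM in lungs and 43.8 ± 34.5 FPKM in thyroid, and its lungs libraries ran from 515 to 4439 FPKM with a median of 1352 FPKM. The log2 difference was 5.35 ± 0.23 (adjusted p = 5.35e-11, 12 of 12 pairs). Unlike the surfactant proteins it was measured widely: 56 of the 63 other tissues averaged 1 FPKM or more and 4 of 755 libraries had no read. None of the 12 thyroid libraries matched its labelled animal, so these pairs may not be within 1 animal.

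SCGB1A1, the secretoglobin of club cells, had the widest range of the 8 by the ratio of its highest to its lowest library, though not by its coefficient of variation (112% for SCGB1A1, 128% for SFTPC). It had 2.40 FPKM in the lowest lungs library, 31.5 FPKM in the median one and 226 FPKM in the highest, a ratio of 93.9 between the ends. That lowest library, ZT22, held 5 reads of SCGB1A1, so the ratio carries much counting error. The mean was 64.4 ± 72.4 FPKM in lungs and 8.76 ± 7.11 FPKM in oesophagus, with a log2 difference of 2.27 ± 0.59 (adjusted p = 0.00277) and lungs higher in 10 of 12 pairs. The oesophagus libraries had 0 to 26.0 FPKM, at most 41 reads in a library, and overlapped lungs. None of the 12 oesophagus libraries had a read of SFTPC.

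**Figure D2:**
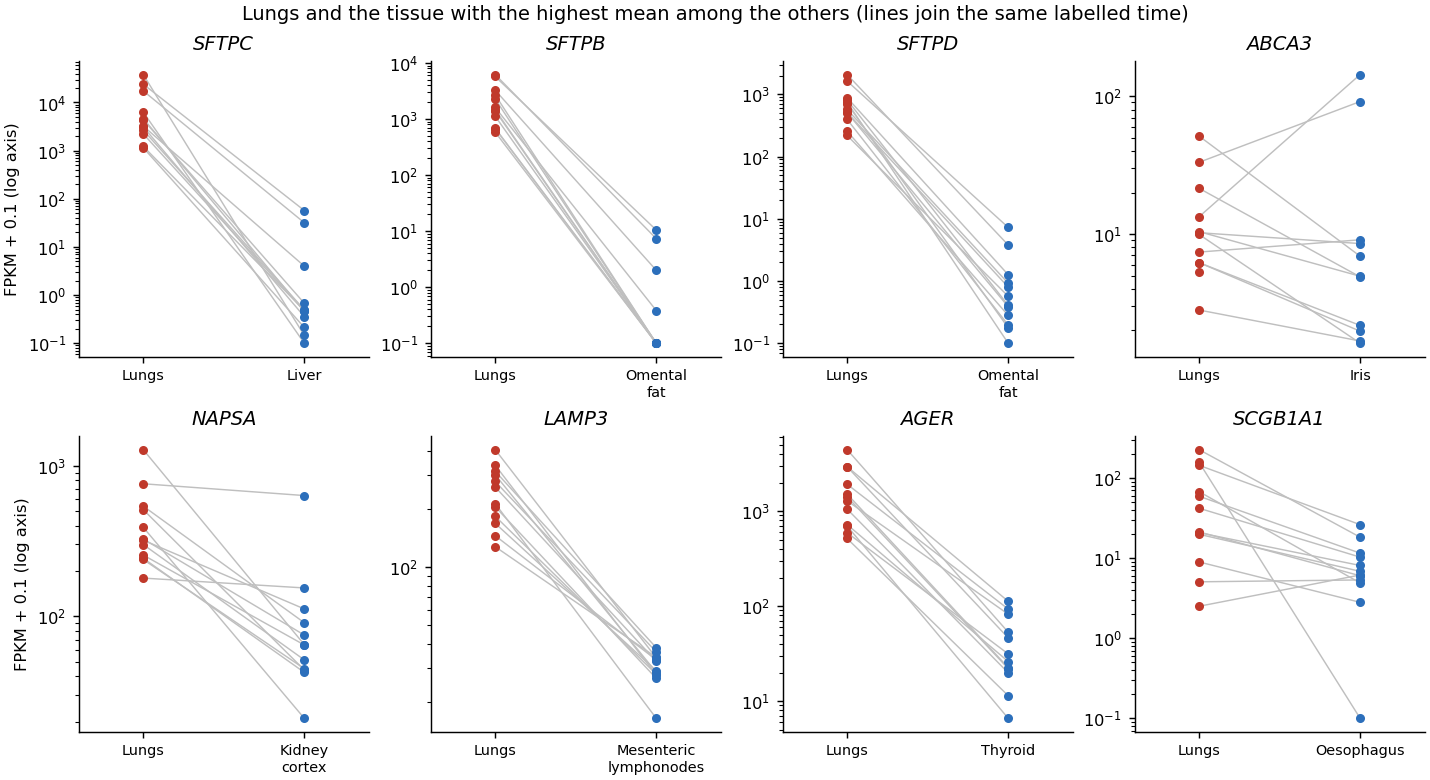
Level of each gene in lungs (left, red) and in the tissue with the highest mean among the others (right, blue), 1 point a library, on a log axis of FPKM + 0.1, with lines joining libraries of the same labelled time. The groups are apart for SFTPC, SFTPB, SFTPD, LAMP3 and AGER, meet for NAPSA through the kidney cortex library of ZT2, and overlap for SCGB1A1 and ABCA3.

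The 3 surfactant proteins had like patterns over tissues. Over 64 tissue means on the log2 scale, Pearson's r was 0.97 between SFTPB and SFTPD, 0.96 between SFTPC and SFTPB and 0.91 between SFTPC and SFTPD. Of 11209 genes ranked, no other gene was as like SFTPB as these. The receptor tyrosine kinase gene ROS1 came next for SFTPB with r = 0.93 and for SFTPC with 0.85. For SFTPD it came before SFTPC, with r = 0.92. The genes most like NAPSA and SCGB1A1 were SFTA2, with r = 0.76 and 0.85, then SFTPB, with r = 0.72 and 0.82.

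LAMP3, AGER and ABCA3 differed from that pattern in 3 ways. LAMP3 was most like IL7R, the interleukin 7 receptor of lymphocytes (r = 0.84), and SFTPB ranked 298 for it. AGER was most like SFTPD, at r = 0.72. ABCA3 was most like C10orf35 (r = 0.87) and ATP13A2 (r = 0.86), a lysosomal transporter gene, and its r with SFTPC was 0.25. These values describe the tissues; the points share libraries, animals and the 1 tissue, lungs, in which most members are high.

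Around the 8 genes, a list of 20 genes of surfactant and its secretion had 17 in the table, all of them tested. SFTPA1 and SFTPA2, the other collectins of surfactant, have no row under these symbols. Of the 11 that are not among the 8 genes, 4 were higher in lungs than in the next tissue. The secreted protein gene SFTA2 averaged 138 FPKM in lungs and 1.57 FPKM in adrenal cortex, a log2 difference of 6.97. The phosphate transporter gene SLC34A2 averaged 501 FPKM in lungs and 169 FPKM in iris (2.07), ADGRF5, a receptor that limits the surfactant pool in mice, 90.9 FPKM in lungs and 34.4 FPKM in perirenal fat (1.34), and SFTA3 132 FPKM in lungs and 80.6 FPKM in thyroid (0.66).

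Of 11 transcription regulators of these genes that were tested, 0 were higher in lungs than in their next tissue. The share over all 12926 genes tested was 0.526%, so this count does not set the regulators apart. NKX2-1, which drives the surfactant genes in lung and the thyroglobulin gene in thyroid, had 7.58 to 48.4 FPKM in lungs, a mean of 18.1 FPKM, and 22.5 FPKM on average in the arcuate nucleus. In thyroid its libraries ran from 6.64 to 40.1 FPKM, where SFTPC had at most 0.16 FPKM.

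Over the day, 6 of the 8 genes had their highest lungs levels at ZT2, ZT4 and ZT6, in the first part of the light phase. The window was chosen after the values were seen. For these 6 genes, SFTPC, SFTPB, SFTPD, ABCA3, NAPSA and AGER, every library of ZT2, ZT4 and ZT6 was above each of the other 9. This holds for 1614 of 12926 genes, or 12.5%, in the same libraries. LAMP3 and SCGB1A1 did not share it. Fewer cells of a type and less RNA per cell cannot be told apart in these bulk samples.

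SFTPC had 17456 FPKM at ZT2, 24073 FPKM at ZT4 and 38097 FPKM at ZT6. The other 9 libraries ran from 1153 FPKM at ZT22 to 6314 FPKM at ZT10, and ZT0 had 2238 FPKM. The mean of the first 3 was 8.23 times that of the others. For SFTPB the values at ZT2, ZT4 and ZT6 were 3263, 5741 and 6215 FPKM and the others ran from 584 to 2695 FPKM, a ratio of means of 3.64. SFTPC therefore stood higher relative to SFTPB in those libraries, at 5.35, 4.19 and 6.13 times its level, than in the other 9, at 1.79 to 3.31 times.

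SFTPD had 883, 1638 and 2085 FPKM at ZT2, ZT4 and ZT6 and no more than 814 FPKM in the others, reached at ZT10. ABCA3 had 21.4, 51.2 and 33.0 FPKM at the same times and at most 13.2 FPKM elsewhere, at ZT8. Its order differed from that of the surfactant proteins, with the highest value at ZT4 and not at ZT6. AGER also had its highest value at ZT4: it had 2935, 4439 and 2928 FPKM at ZT2, ZT4 and ZT6 and at most 1918 FPKM elsewhere. NAPSA had 758, 539 and 1277 FPKM, close above the 511 FPKM of ZT14.

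LAMP3 went another way, with its highest level in the dark phase, 405 FPKM at ZT20. It had 213, 145 and 300 FPKM at ZT2, ZT4 and ZT6 and 168 to 405 FPKM between ZT8 and ZT22. SFTPC was 166 times the LAMP3 level at ZT4, the highest of the ratios over the 12 libraries. SCGB1A1 had no ordered profile: 226 and 144 FPKM at ZT2 and ZT4 were followed by 4.95 FPKM (5 reads) at ZT6, and ZT10 had 157 FPKM.

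**Figure D3:**
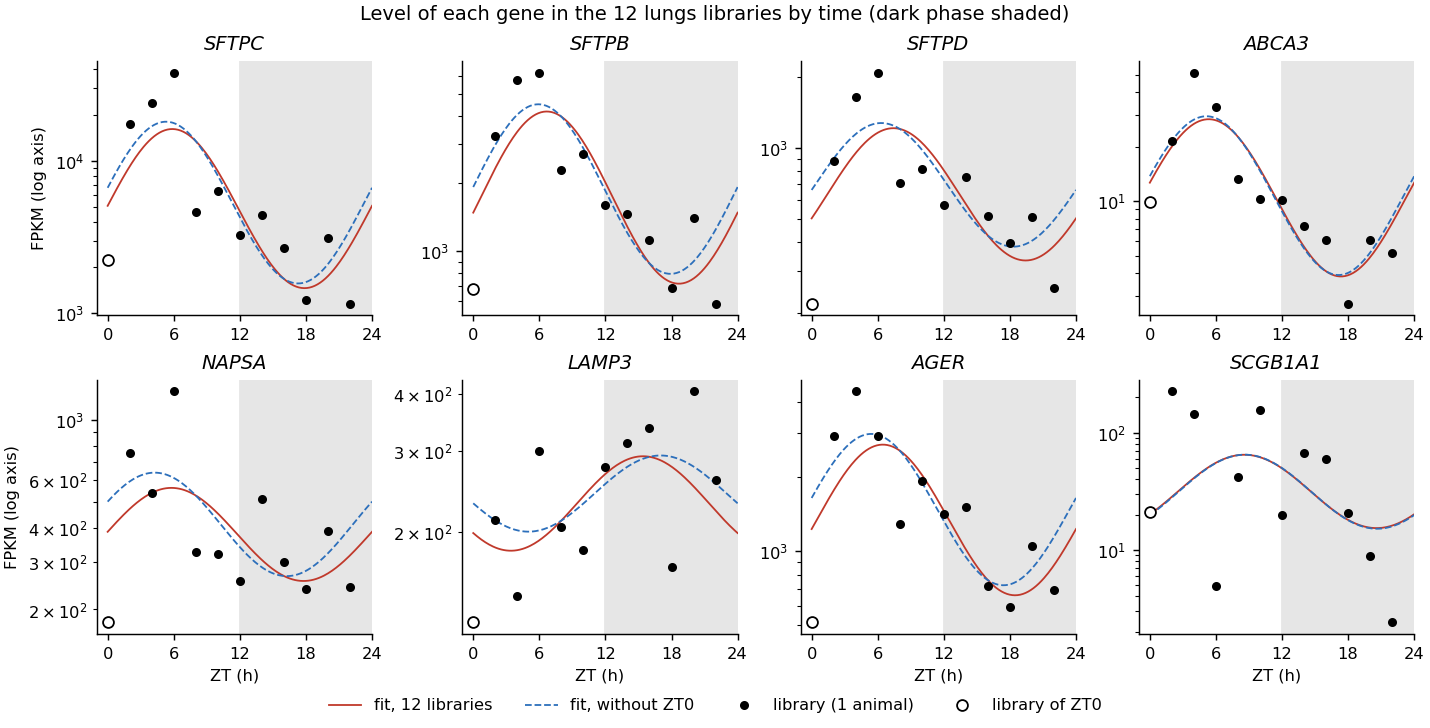
Level of each gene in FPKM (log axis) in the 12 lungs libraries by time, with the fitted 24 h curve over 12 libraries (red) and without ZT0 (blue, dashed); the open point is ZT0, each point is 1 animal and the dark phase is shaded. SFTPC, SFTPB, SFTPD, ABCA3, NAPSA and AGER have their 3 highest points at ZT2, ZT4 and ZT6.

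A 24 h rhythm was tested with a cosine and a sine term for every gene with a mean of 1 FPKM or more in lungs, with limma's moderated F and Benjamini-Hochberg adjustment over all of them. With 12 libraries, 3 of the 8 genes passed an adjusted p of 0.05, against 12.3% of the 12926 genes tested. ABCA3 had a log2 amplitude of 1.37 ± 0.21 (SE), a fitted peak 6.65 times its trough, a peak at ZT5.3 and an adjusted p of 0.0364, and it ranked 25 of all genes by p. SFTPB had an amplitude of 1.27 ± 0.27, a peak at ZT6.7 and an adjusted p of 0.0364. SFTPC had the greatest amplitude, 1.74 ± 0.39, with a peak 11.1 times its trough at ZT5.9 and an adjusted p of 0.0383.

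The other 5 genes did not pass with 12 libraries. AGER had an amplitude of 1.01 ± 0.27 with a peak at ZT6.5 (adjusted p = 0.0569), and SFTPD 0.93 ± 0.27 at ZT7.4 (adjusted p = 0.0702). NAPSA had 0.57 ± 0.27 (adjusted p = 0.279), LAMP3 0.34 ± 0.19 with a peak at ZT15.4 (adjusted p = 0.373) and SCGB1A1 1.02 ± 0.69 (adjusted p = 0.490).

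Without ZT0, 5 of the 8 genes passed, and the share of all genes was 18.3% of 12542. AGER and SFTPD were added to the 3, with adjusted p of 0.0311 and 0.0415 and peaks at ZT5.4 and ZT6.3. The amplitude of SFTPC became 1.77 and its peak ZT5.3, that of SFTPB 1.25 at ZT5.9 and that of ABCA3 1.38 at ZT5.1. NAPSA had an adjusted p of 0.145 and LAMP3 one of 0.435. The median log2 amplitude of the 8 genes was 1.02 with and without ZT0, beside 0.43 and 0.39 over all genes tested.

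These calls changed with the set of libraries in the fit. With each of the 12 libraries left out in turn, 0 of the 8 genes passed in 8 fits, those without ZT2, ZT4, ZT6, ZT10, ZT12, ZT16, ZT18 or ZT20. Between 3 and 5 passed in the other 4, without ZT0, ZT8, ZT14 or ZT22. The amplitudes moved less than the calls: that of SFTPC stayed between 1.46 and 2.04, that of SFTPB between 1.14 and 1.46 and that of ABCA3 between 1.18 and 1.499, and their highest adjusted p were 0.139, 0.136 and 0.132. With 12 libraries 4625 genes had an unadjusted p under 0.05. The number of all genes that passed ranged from 5 to 3074 over the same 12 fits.

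**Figure D4:**
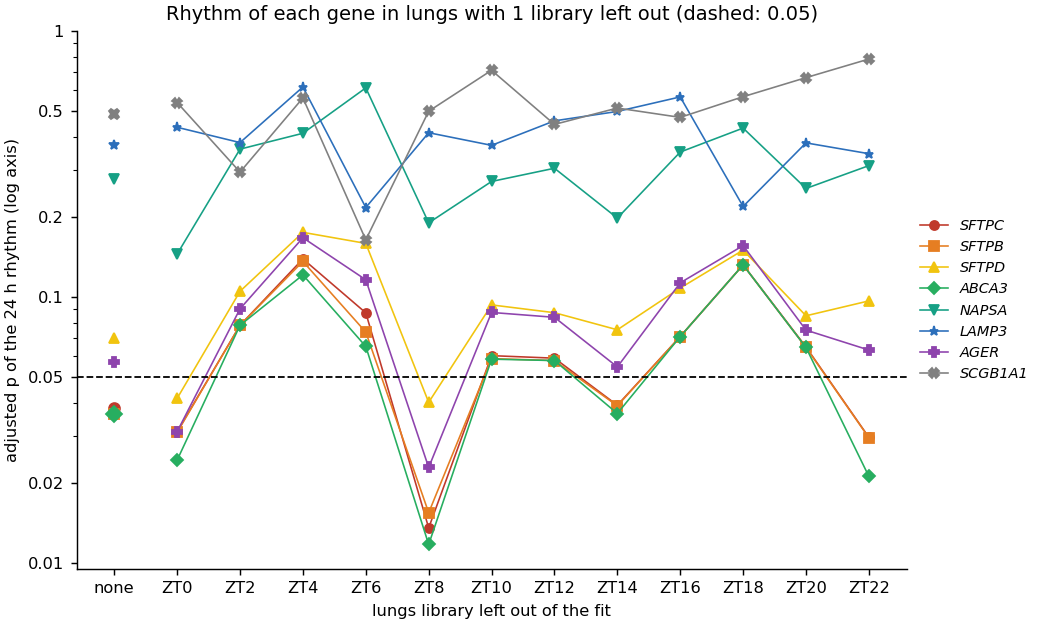
Adjusted p of the 24 h rhythm of each gene (log axis) with all 12 lungs libraries (none) and with the library of each time left out; the dashed line is 0.05. SFTPC, SFTPB and ABCA3 move together, below the line without ZT0, ZT8, ZT14 or ZT22 and above it in the other 8 fits.

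The lungs libraries as a whole also differed between the early light phase and later times. A shared library axis, the first principal component after each library was centred on its tissue, took 29.4% of the variance. It was made without the 8 genes, from 702 libraries outside iris with r of 0.9 or more with their tissue mean and at least 1000000 reads. The lungs libraries of ZT0 and ZT4 were under that r, so they were scored on the axis but not used to make it. Its sign was set so that the libraries of ZT2, ZT4 and ZT6 had a positive mean. The lungs score was 1.44 at ZT0, 1.84 at ZT2, 2.93 at ZT4 and 1.18 at ZT6, in units of the SD over 702 libraries. It lay between -2.20 (ZT18) and 0.10 (ZT10) in the other 8 libraries. Of the 1593 genes with a rhythm, 76.7% peaked between ZT4 and ZT8. With the axis score as a covariate, 0 of the 8 genes and 4 of all genes passed, and the amplitudes fell to 0.83 ± 0.49 for SFTPC, 0.86 ± 0.34 for SFTPB and 0.67 ± 0.25 for ABCA3 (adjusted p = 0.992 each). The score and the time move together, so their parts cannot be told apart.

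Markers of other cells moved between the same libraries. Over 7 macrophage markers the median level was 16.5 FPKM at ZT4 and 6.35 FPKM at ZT6, beside 45.6 FPKM at ZT2 and 9.61 to 21.99 FPKM in the other libraries. The mannose receptor MRC1 had 8.76 FPKM at ZT4 and 6.32 FPKM at ZT6, beside 20.4 to 131 FPKM elsewhere. The complement genes C1QA and C1QB, of the same list, went the other way and passed the rhythm test with peaks at ZT5.1 and ZT6.2 (adjusted p = 0.046 and 0.0498). The median of the smooth muscle list was 42.5 FPKM at ZT4 and 4.64 to 22.4 FPKM elsewhere. The liver gene ALB had 499 FPKM at ZT16, where the median of the hepatocyte list was 17.8 FPKM, and at most 84.7 FPKM elsewhere. The part of these cells in the profile of the 8 genes was not tested.

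**Figure D5:**
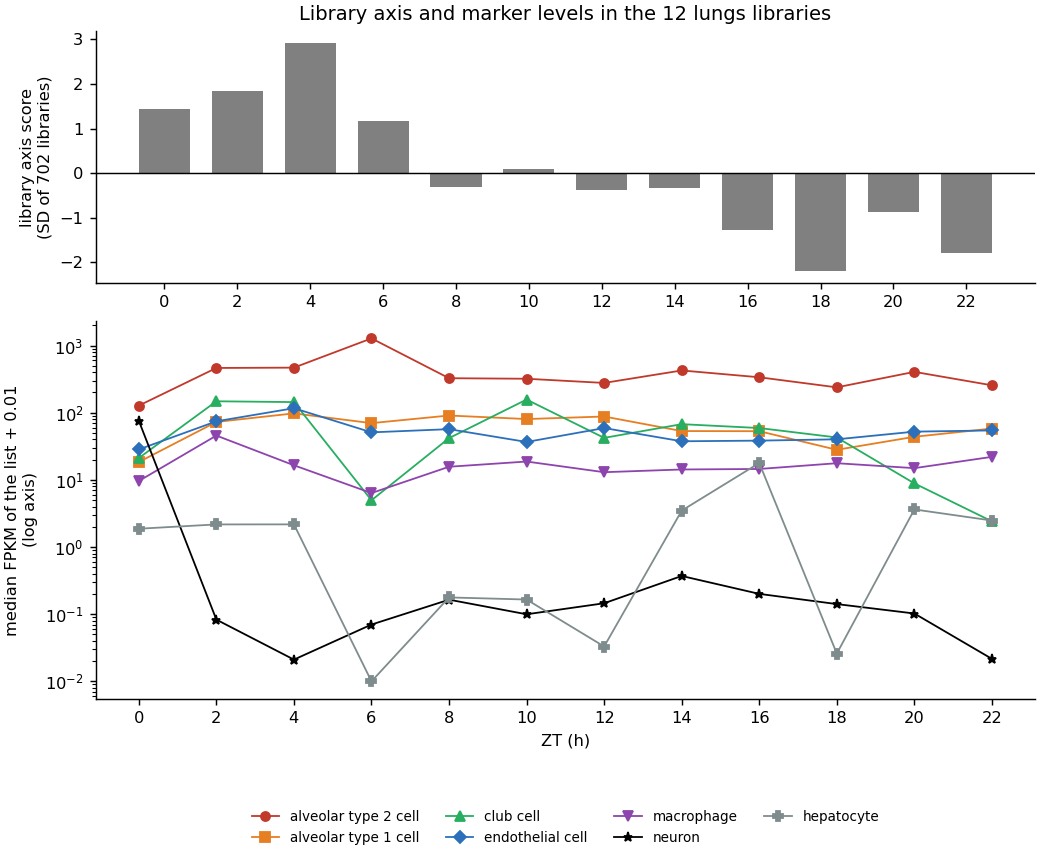
Top, score of the shared library axis in each lungs library by time; bottom, median level of 7 marker lists in the same libraries (log axis of FPKM + 0.01). The score is above 1 from ZT0 to ZT6, the neuron list is high at ZT0 alone, and the club cell list is at 4.95 FPKM at ZT6 and 2.40 FPKM at ZT22. In those libraries of ZT6 and ZT22 the median of the club cell list is the value of SCGB1A1 itself.

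Other genes of the same cells did not all follow the 8. Among the 11 further genes of surfactant and its secretion, 0 passed the rhythm test in limma with 12 libraries, and SFTA2 passed without ZT0 (adjusted p = 0.039). Over all genes tested the shares were 12.3% and 18.3%, so counts in lists this short, here and below, do not set the lists apart from other genes. The median log2 amplitude of the 11 with 12 libraries was 0.42, beside 0.43 over all genes. SLC34A2 had its highest level at ZT6, 1348 FPKM, but 463 and 468 FPKM at ZT2 and ZT4 and up to 538.5 FPKM elsewhere. Of the 11 regulators tested, FOXA2 (peak ZT6.6, adjusted p = 0.041) and HOPX (peak ZT7.2, adjusted p = 0.036) passed, and NKX2-1 and TBX2 were added without ZT0. HOPX, also a type 1 cell marker, had 292 FPKM at ZT4 and 11.5 FPKM at ZT22.

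Of the other 10 type 1 cell markers tested, HOPX alone passed with 12 libraries, near the 12.3% of all genes. In lungs 4 of the 10 were higher than in the next tissue, beside 0.526% of all genes, but they were picked as lung cell markers. CAV1, the caveolin gene, had 683 ± 242 FPKM in lungs with its highest level at ZT22, 1091 FPKM. It had 521, 441 and 469 FPKM at ZT2, ZT4 and ZT6, so it was not high where AGER was. AQP5, a water channel gene of the same list, was high at those times, with 72.8, 96.1 and 52.8 FPKM at ZT2, ZT4 and ZT6 and at most 29.0 FPKM elsewhere, but it did not pass the rhythm test (log2 amplitude 1.80, peak ZT5.8, adjusted p = 0.086).

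Club cells gave 3 further genes above the filter. SCGB3A2, another secretoglobin, averaged 580 ± 417 FPKM and passed the rhythm test with a peak at ZT10.7 (adjusted p = 0.041). At ZT6 it had 1061 FPKM, where SCGB1A1 had 4.95 FPKM, and at ZT22 it had 86.5 FPKM, where SCGB1A1 had 2.40 FPKM. Those SCGB1A1 values came from 5 reads each. The cytochrome gene CYP4B1 had 211 FPKM at ZT6 and 40.1 to 177 FPKM elsewhere. BPIFB1, a secreted protein gene of the airway epithelium, was low in the libraries where SCGB1A1 was low, with 1.33 FPKM at ZT6, 1.19 FPKM at ZT20 and 0.97 FPKM at ZT22, beside 10.2 to 188 FPKM in the others. SCGB3A2 and CYP4B1 were thus not low at ZT6, while SCGB1A1 and BPIFB1 were.

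Within lungs, the 6 genes SFTPC, SFTPB, SFTPD, ABCA3, NAPSA and AGER had r between 0.68 (ABCA3 with NAPSA) and 0.96 with each other across animals. Over the 12 libraries r was 0.96 between SFTPC and SFTPB, 0.96 between SFTPB and SFTPD, 0.95 between SFTPB and AGER, 0.92 between SFTPC and ABCA3, 0.88 between SFTPC and NAPSA and 0.78 between SFTPD and ABCA3. LAMP3 had r between -0.36 and 0.29 with the other 7 genes. Many other genes were as like them: of 7204 genes ranked, SFTPB was most like NUPR1 (r = 0.98), SFTPC like CRB3 (0.98), SFTPD like ELF3 (0.98), ABCA3 like DDX39B (0.99), AGER like the epithelial keratin KRT7 (0.99) and NAPSA like RAB34 (0.95). SFTPC ranked 364 for ABCA3. LAMP3 was most like KCNJ15 (0.87) and SCGB1A1 like VMO1 (0.95). The points share the library axis and, at ZT0, the nerve tissue RNA. Without ZT0 the most alike gene was CBR1 for SFTPC (r = 0.99), MRPL27 for SFTPD (0.98) and PPP2R5B for ABCA3 (0.996). It was RASL11A for NAPSA (0.96) and SNORD31 for LAMP3 (0.90), and stayed the same for SFTPB, AGER and SCGB1A1. The 6 genes then had r between 0.74 (ABCA3 with NAPSA) and 0.97 with each other. LAMP3 then had r between -0.48 and 0.09 with the other 7 genes.

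The core clock genes, measured in the same libraries, had 10 of 12 past the rhythm test with and without ZT0, beside 12.3% and 18.3% of all genes. The negative limb gene PER1 peaked at ZT3.0 and the activator ARNTL at ZT13.2, with log2 amplitudes of 2.16 ± 0.25 and 1.296 ± 0.14. Their peaks were spread around the day, while those of the 3 genes that passed lay between ZT5.3 and ZT6.7.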

How the data were processed

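The 767 columns were matched by name to the labelled libraries, and 0 value columns were left unmapped. The values are FPKM made by the authors. STAR, featureCounts and DESeq2 are named in the submitters' processing notes, but what each did, its version and the build of the genome were not given in the sources used here, and no coordinates or sequences are printed. Checked on the values, all 26546 rows above 0 were whole reads within 0.01 read times a gene step and a library step, where the step of each library was its median-of-ratios factor. Recovered reads gave the depth, 32790 to 31811286 reads per library.

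Tests used log2(FPKM + 0.5), which understates changes of low genes, for genes averaging at least 1 FPKM, in limma 3.58.1 (R 4.3.3, variance trend on), adjusted by Benjamini-Hochberg over all genes tested and called at 0.05. The rhythm fit had a 24 h cosine and sine term over the lungs libraries. Lungs were compared with each of 63 tissues in paired fits, the pairs being the labelled animal, which is in the labels (1 animal per time for all tissues); 675 of 767 libraries matched it best, but none in 6 tissues, thyroid among them. Both fits were run on simulated data with 200 changed genes. The rhythm fit recovered 199 with 16 false calls, and the paired fit 200 with 13. The simulated noise was independent between genes and held no shared library axis, so these runs do not show how the fits behave with that axis.

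The 8 genes, the gene lists and the tests were chosen with earlier results of these data known. Named genes are the 8, the most alike genes by r (lungs mean of 1 FPKM or more over tissues, 5 FPKM or more within lungs), the tissues with the highest means, and members of the lists. Other settings were another pseudocount, filter, scaling or covariate, no pairing, and each lungs library left out.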

Additional observations from a re-analysis of the deposited data

How the results depend on the processing

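The differences between lungs and the next tissue were stable, and the rhythm calls were not. Over 19 other settings each of the 7 genes called higher in lungs stayed called, with 7 to 8 of the 8 genes and 59 to 88 of all genes passing. With each lungs library left out in turn, 7 to 8 genes of the 8 and 63 to 85 of all genes passed. Without the replicate block (no pairing by animal) 7 of the 8 genes and 59 of all genes passed, and this changed no call among the 8. ABCA3 passed against the iris with median-of-ratios factors recomputed over both tissues (adjusted p = 0.0393) and without ZT8.

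The rhythm counts were 3 of the 8 genes and 1593 of all genes. They became 0 and 7 with no filter on low genes, 0 and 4 with the library axis as a covariate, 0 and 5 with a linear trend over time, 0 and 15 after scaling by total reads, and 0 and 21 without ZT0 and ZT4; the last 2 settings were chosen after seeing the data. With 1 library left out they ranged from 0 to 5 and from 5 to 3074. Quantile scaling left 2 of the 8 genes (SFTPC adjusted p = 0.0608). The median gene moved by up to -0.65 (ZT0) with total reads, by up to 0.29 with quantiles and by up to 0.17 with recomputed factors, on the log2 scale. SCGB1A1, never called, turned to a peak at ZT14.6 with an amplitude of 1.83 (axis) and 1.41 (trend). The cause was not tested. With 1 animal per time and 12 libraries, low levels carry more counting error than that of SFTPC. ABCA3 had 103 to 2508 reads a lungs library and SCGB1A1 had 5 to 1266.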

Other observations

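Genes other than the 8 were also higher in lungs than in the next tissue. Of the 6 rows with the greatest log2 difference between lungs and the next tissue, 3 had no symbol in the table. The row ENSPANG00000022577 averaged 3970 FPKM in lungs, a level between SFTPC and SFTPB, at 730 times its next tissue. The vascular genes TMEM100 (917 FPKM, log2 difference 2.71) and CALCRL (274 FPKM, 2.71) and the lung mesenchyme transcription factor gene TBX4 (17.2 FPKM, 2.77) were among the 68 genes called higher in lungs. For some of the 68 the test and the means ran in opposite directions: SCGB3A2 averaged 580 FPKM in lungs and 1342 FPKM in prostate, yet its log2 difference was 4.56.

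Endothelial genes in lungs had different profiles over the 12 libraries. CA4, a marker of lung capillaries, had 160 FPKM at ZT4 and 15.2 FPKM at ZT16 and passed the rhythm test with a log2 amplitude of 1.28 ± 0.19 and a peak at ZT4.7 (limma, adjusted p = 0.036). EDNRB, an endothelin receptor gene, had 14.7 FPKM at ZT6 and 108 FPKM at ZT22. Its peak in limma was at ZT18.7 (adjusted p = 0.053 with 12 libraries and 0.049 without ZT0). The general endothelial gene PECAM1 had 458 FPKM at ZT8 and 64.7 FPKM at ZT0 (adjusted p = 0.624).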
